A study of Mus musculus with 6 samples.

Results

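Ezh2, Brwd1 and Kansl1 encode proteins that write, read or scaffold marks on chromatin, and 4 circular RNAs (circRNAs) of these 3 genes were followed in the striatum of mice that overexpress the RNA-binding protein HuD. They are circEzh2 (circRNA_40229), circRNA_30123 and circRNA_30129 of Brwd1, and circKansl1 (circRNA_24239), 4 of the 14236 circRNAs on the array. The first, second and last were taken from the deposited list of circRNAs higher in HuD-OE mice past a limit of 2-fold, called the higher list below, which is narrower than the limit of 1.5-fold used in the study's text, so they were selected on the very difference between genotypes given below, and their differences are a description with no test. CircRNA_30129 was taken from the study's list of HuD-bound circRNAs instead. That list came from other arrays, of RNA pulled down with a myc antibody from HuD-OE striatum and set against WT tissue treated alike, so it too was chosen on a difference between the genotypes, in immunoprecipitates and not in total RNA.

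A circRNA forms when the spliceosome joins the end of an exon back to the start of an earlier one, which leaves a closed loop with no free ends. Ezh2 is the catalytic subunit of Polycomb repressive complex 2 and methylates lysine 27 of histone H3, a mark of silenced genes. Brwd1 carries WD repeats and bromodomains, modules that bind acetylated histones, and Kansl1 is the scaffold of the NSL complex, which holds the histone acetyltransferase Kat8. HuD, encoded by Elavl4, is a neuronal protein that binds AU-rich stretches and stabilizes many of its target mRNAs.

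The tissue was the striatum of adult male mice, labelled C57BL6, and the transgenic line had been backcrossed to C57BL/6J per the methods. HuD-OE mice express myc-tagged HuD from a transgene driven by the Camk2a promoter, which is active in forebrain excitatory neurons and also in striatal neurons, and the WT mice were their littermates without it. RNA from 3 HuD-OE and 3 WT mice was digested with RNAse R, which degrades linear RNA, and each sample was hybridized to 1 Arraystar Mouse circRNA Array V2 in 1 color. No table used here pairs a probe with Elavl4, so the transgene was not checked on these arrays, and linear marker mRNAs of striatal neurons, which these circRNA probes do not read, were not checked either. In bulk tissue, fewer cells of a type and less RNA per cell cannot be told apart.

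The array of WT 3 stood apart from the rest. On it, 60.3% of circRNAs were well above background, whereas the share on the remaining arrays was 87.2% or more, and it was scanned in a run of its own. HuD-OE 1 to 3 and WT 1 held the first array row, while WT 2 and WT 3 held the second. Fold changes below are therefore also given without WT 3.

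All 4 circRNAs lie on the minus strand, inside their host genes. The deposited tables do not name the build of their positions, but 686 of 688 listed circRNAs whose host gene is on the same chromosome of the RefSeq gene table fell within that gene in build GRCm38.p6, and the positions below were read in that build. CircEzh2 spans chr6:47545676-47558294, 12.6 kb of the 65.0 kb Ezh2 gene, and is annotated as exonic on NM_007971. CircRNA_30123 spans chr16:96002434-96017724 (15.3 kb) and circRNA_30129 spans chr16:96043001-96068627 (25.6 kb), both exonic on NM_145125. The Brwd1 spans do not overlap. CircRNA_30129 comes from the 5′ part of the gene, from 14.1 to 39.7 kb behind its start, and circRNA_30123 from 65.0 to 80.3 kb, with 25.3 kb between them. CircKansl1 spans chr11:104378685-104426468 (47.8 kb of 136 kb) on NM_001081045 and is annotated as sense overlapping, which the tables use for a circRNA of the gene's own strand that is neither purely exonic nor intronic.

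**Figure D1:**
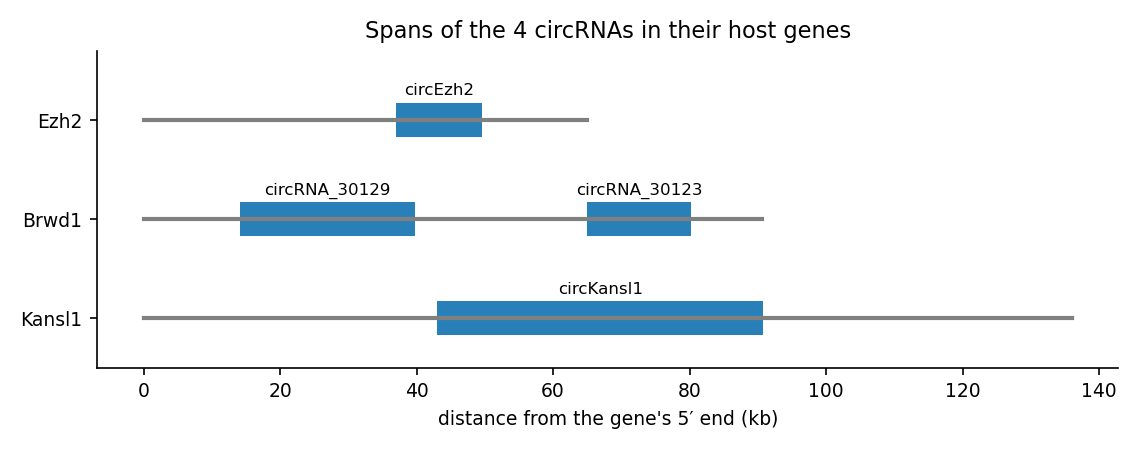
Spans of the 4 circRNAs (blue bars) along their host genes (grey lines), drawn as distance in kb from the 5′ end of each gene in build GRCm38.p6. The bars of circRNA_30129 and circRNA_30123 lie apart, separated by 25.3 kb.

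The annotation gives 1 sequence of 60 bases per circRNA, headed as its exon junction in the list of bound circRNAs. Where in it the junction lies, and whether it is also the sequence of the probe, is not given in the sources used here, so a property of these bases may belong to the circRNA, the probe or both. These are shown because all 4 hold the same purine-rich letters, GAAGAA, which the choice of circRNAs did not use. Capitals mark every GAAGAA, with overlapping copies merged, and positions are counted from 1 at the 5′ end.
circEzh2: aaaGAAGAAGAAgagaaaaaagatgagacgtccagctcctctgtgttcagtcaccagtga
circRNA_30123: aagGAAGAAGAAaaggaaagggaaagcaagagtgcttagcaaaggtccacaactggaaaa
circRNA_30129: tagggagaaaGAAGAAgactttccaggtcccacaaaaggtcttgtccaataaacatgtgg
circKansl1: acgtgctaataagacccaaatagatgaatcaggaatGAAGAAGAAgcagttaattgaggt

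CircEzh2, circRNA_30123 and circKansl1 each hold 2 overlapping copies, a run of 9 bases, and circRNA_30129 holds 1 copy. In circEzh2 and circRNA_30123 the run begins at position 4, inside unbroken stretches of 23 and 26 purines (A or G). In circRNA_30129 the copy begins at position 11 within a stretch of 17 purines, and in circKansl1 the run begins at position 37 within a stretch of 10. Purines made up 65.0% of the bases of circEzh2, 80.0% of circRNA_30123, 61.7% of circRNA_30129 and 68.3% of circKansl1. None of the 4 holds TTCTTC, the same letters on the other strand, and none holds ATTTA, the core letters of an AU-rich element. That says only that these letters are not in this window of 60 bases.

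The letters GAAGAA were searched after the sequences had been seen. The higher list holds 69 circRNAs, and the copy of the bound list used here holds 658 and may not be the whole of it. They occurred in 91 of the 726 junction sequences of these lists and of the deposited list of lower circRNAs (12.5%), and TTCTTC occurred in 17 (2.34%). Among the 66 circRNAs of the higher list other than circEzh2, circRNA_30123 and circKansl1, 27 held GAAGAA (40.9%), and among 653 HuD-bound circRNAs outside that list 61 did (9.34%). The opposite order was seen for ATTTA, in 2 of 69 sequences of the whole higher list (2.90%) and 32 of the 653 bound ones (4.90%). The median purine share was 65.0% in the higher list and 56.7% in the bound circRNAs. These shares describe how lists made in different ways differ, and no test was run on them.

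The deposited table also lists, for each circRNA called higher, 5 miRNAs with predicted sites. For circEzh2, circRNA_30123 and circKansl1 it names 13 different miRNAs, of which 12 were matched to a mature sequence in RefSeq (GRCm38.p6), and mmu-miR-7214-5p is named only. The complement of the seed, bases 2 to 8 of the miRNA, was found in the circRNA's own junction sequence for 3 of the 15 pairs, which involve the miRNAs shown here with the seed in capitals.
mmu-miR-1903: cCUUCUUCuucuuccugagaca
mmu-miR-6946-3p: uUUCUUCUcuucccuuucag

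The seeds of both are shifted copies of the same pyrimidine repeat, and their complements, GAAGAAG and AGAAGAA, overlap the letters shown in capitals above. For mmu-miR-1903, named for circEzh2, the complement first begins at position 4 of the circEzh2 sequence. For mmu-miR-6946-3p, named for circEzh2 and circRNA_30123, it first begins at positions 3 and 6. Both complements also occur in the junction sequences of circRNA_30129 (positions 11 and 10) and circKansl1, for which the table does not name these miRNAs among its 5 or holds no entry. GAAGAAG occurs in circRNA_30123 as well, for which the table does not name mmu-miR-1903. GAAGAAG was found in 23 of the 69 sequences of the higher list (33.3%) and in 21 of 653 bound ones (3.22%), and AGAAGAA in 20 (29.0%) and 28 (4.29%). The table named mmu-miR-6946-3p for 11 and mmu-miR-1903 for 10 of the 69 circRNAs. A further miRNA, mmu-miR-7092-3p, was named for circEzh2 and circKansl1 and for 9 of the 69, with no seed complement in the 60 bases of either. A match of letters is a description and not a site.

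Levels are given as the log2 of the background-corrected (processed) intensity minus the 75th percentile of the array, so that a spot at that percentile has a level of 0. Levels of different circRNAs come from different probes and are not compared with each other. Each circRNA had 1 spot per array, and none of these spots was marked as an outlier. The fold changes and their standard errors come from the limma fit across all 13460 tested circRNAs. Over these, the median log2 fold change of HuD-OE over WT was 0.15, and without WT 3 it was -0.01.

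CircEzh2 was higher on each HuD-OE array than on any WT array. HuD-OE arrays 1, 2 and 3 read 6.28, 5.93 and 5.68, whereas WT arrays 1, 2 and 3 read 3.83, 4.73 and 2.17. The groups did not overlap: the lowest HuD-OE array lay 0.95 above the highest WT array, WT 2. The processed intensities behind these levels ranged from 4735 to 9847 in HuD-OE and from 195 to 3373 in WT, all well above background. HuD-OE averaged 5.96 ± 0.30 and WT 3.58 ± 1.30 (SD, n = 3 each), a log2 fold change of 2.38 ± 0.62 (SE), or 5.22-fold. Most of the spread lay in WT, whose arrays covered 2.56 log2 units against 0.60 in HuD-OE. Without WT 3 the log2 fold change was 1.68 ± 0.38 (SE), or 3.21-fold. Against WT 1 alone, the WT array in the same array row as the HuD-OE arrays, the difference was 2.13, and against WT 2 alone it was 1.23.

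CircRNA_30123 followed the same order. HuD-OE arrays 1, 2 and 3 read 1.70, 1.68 and 1.35, whereas WT arrays 1, 2 and 3 read -0.10, 0.60 and -2.54. HuD-OE arrays lay within 0.35 of each other and at least 0.75 above WT 2, the highest WT array, while the WT arrays covered 3.14 log2 units. On WT 3 the spot was not well above background, so the WT mean rests on 2 measured arrays and 1 dim one. HuD-OE averaged 1.58 ± 0.20 and WT -0.68 ± 1.65 (SD, n = 3 each), and the log2 fold change was 2.26 ± 0.74 (SE), or 4.78-fold. Without WT 3 it was 1.33 ± 0.34 (SE), or 2.51-fold, and with normexp background correction and an offset of 50 it was 1.31. The difference was 1.68 against WT 1 alone and 0.98 against WT 2 alone.

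CircKansl1 was also higher on every HuD-OE array. The levels of HuD-OE 1, 2 and 3 were -0.79, -0.39 and -0.25, below which lay WT 1, 2 and 3 at -1.55, -1.66 and -3.69. The lowest HuD-OE array lay 0.76 above the highest WT array, WT 1. WT 1 and WT 2 differed by little, with processed intensities of 41.2 and 40.2, and the spot of WT 3 was again not well above background. HuD-OE averaged -0.48 ± 0.28 and WT -2.30 ± 1.20 (SD, n = 3 each), and the log2 fold change was 1.82 ± 0.59 (SE), or 3.54-fold. Without WT 3 it was 1.13 ± 0.31 (SE), or 2.19-fold, and against WT 1 and WT 2 alone it was 1.07 and 1.19. With normexp, the log2 fold change of circKansl1 was 0.60.

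Across all tested circRNAs, 338 were higher in HuD-OE past 1.5-fold with an unadjusted p under 0.05 (2.51% of 13460), 65 were lower (0.483%), and none passed an adjusted p of 0.05 by limma, where 403 had an unadjusted p under 0.05. For 990 (7.36%), all HuD-OE arrays read higher than all WT arrays. CircEzh2, circRNA_30123 and circKansl1 belong to the first and the last of these classes, but they were selected on this contrast, and nothing is read from that here. In the authors' own normalization, the mean log2 intensity in HuD-OE and WT was 13.4 and 10.1 for circEzh2, 8.46 and 6.67 for circRNA_30123 and 6.57 and 5.56 for circKansl1.

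**Figure D2:**
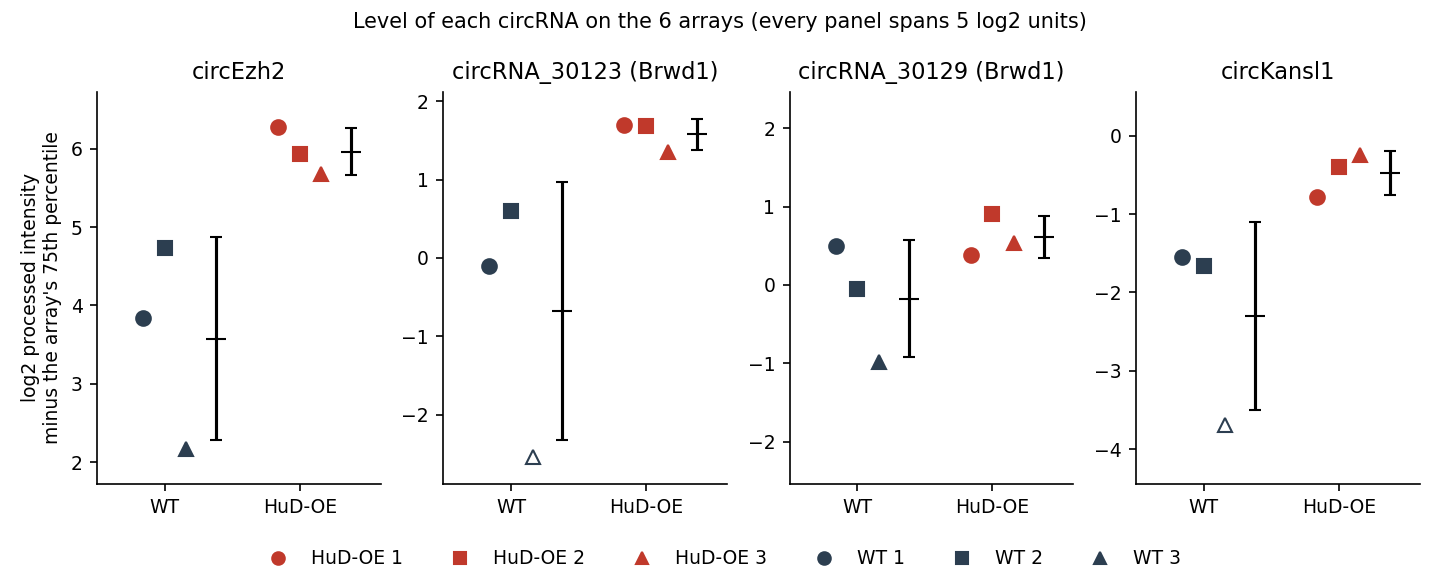
Level of each circRNA (log2 processed intensity minus the array's 75th percentile) on the 3 WT (dark) and 3 HuD-OE (red) arrays, with the mean and SD of each genotype in black. Open symbols are spots not well above background (WT 3 for circRNA_30123 and circKansl1). HuD-OE lies above WT without overlap in all panels except that of circRNA_30129, and WT 3 is the lowest array in each.

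CircRNA_30129, the HuD-bound circRNA from the 5′ part of Brwd1, overlapped between the genotypes and did not pass the limits. The levels of HuD-OE 1, 2 and 3 were 0.38, 0.90 and 0.54, beside 0.50, -0.05 and -0.98 on WT 1, 2 and 3, all well above background. The groups overlapped, since WT 1 lay above HuD-OE 1 by 0.12. HuD-OE averaged 0.61 ± 0.27 and WT -0.18 ± 0.75 (SD, n = 3 each). The log2 fold change was 0.78 ± 0.45 (SE), or 1.72-fold, with an unadjusted p of 0.118 and an adjusted p of 0.866 by limma over all tested circRNAs. An exact permutation test over the 6 arrays, two-sided, gave p = 0.2, where the smallest p that 3 arrays against 3 allow is 0.1. The value rested on the WT arrays. Without WT 1 it was 1.12 with an unadjusted p of 0.043 (limma), past both limits, without WT 3 it was 0.38 with an unadjusted p of 0.293, against WT 1 alone it was 0.11, and with normexp it was 0.47.

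To set the Brwd1 circRNAs beside each other, each was expressed as its change from its own WT mean, so that the brightness of the probes does not enter. In HuD-OE 1, 2 and 3, circRNA_30123 changed by 2.38, 2.36 and 2.03 and circRNA_30129 by 0.56, 1.08 and 0.71. The change of circRNA_30123 was the larger on every HuD-OE array, by 1.82, 1.28 and 1.31, a mean of 1.47 ± 0.30 (SD, n = 3). In WT the difference between their changes was -0.10, 1.15 and -1.06 on arrays 1, 2 and 3, an SD of 1.11. The value of WT 3 rests on a spot of circRNA_30123 that was not well above background, and so do this SD and the WT mean from which the changes were taken. WT 2 thus came within 0.13 of HuD-OE 2, the lowest HuD-OE array in this measure. Relative to WT 1 and WT 2 together, the mean difference in HuD-OE was 0.94, relative to WT 1 alone 1.57 and relative to WT 2 alone 0.32. Because circRNA_30123 was selected on this contrast, the difference between them was not tested. The junction sequences shown above differ in the same order, with 2 copies of GAAGAA and 80.0% purines in circRNA_30123 and 1 copy and 61.7% in circRNA_30129. The part of the sequence in this difference was not tested.

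**Figure D3:**
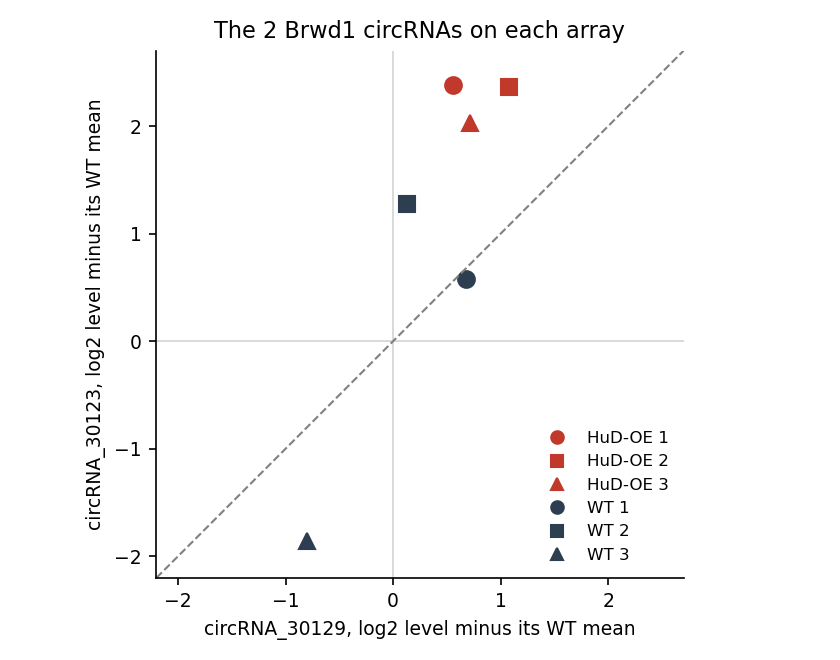
Change of circRNA_30123 (vertical) against that of circRNA_30129 (horizontal) on each array, both as log2 level minus the WT mean of the same circRNA, with equal changes on the dashed line. The HuD-OE arrays lie above the line by 1.28 to 1.82, WT 2 lies above it by 1.15, WT 1 lies close to it and WT 3 below it.

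The circRNAs whose pattern over the 6 arrays was most like each of the 4 were sought among those that the lists pair with another host gene, by Pearson's r of the levels. All share the arrays, and thereby the low WT 3. The circRNAs of the higher list, circEzh2, circRNA_30123 and circKansl1 among them, were selected on the contrast between these same arrays. A high r between 2 of them is therefore partly built in. For circEzh2 they were circRNAs of Por, the electron donor of cytochromes P450 (r = 0.998), Stk4, a kinase of the Hippo pathway (0.998), and Snx10, a sorting nexin of endosomes (0.995). For circRNA_30123 they were those of Gigyf2, which takes part in repression of translation (0.9995), Igsf11, a synaptic adhesion protein (0.998), and Lppr4, a lipid-phosphate-phosphatase-related protein of synapses (0.998). These 6 stood in the higher list. For circRNA_30129 they were bound circRNAs of the actin-binding protein Tagln3 (0.987), the homeobox factor Cux1 (0.986) and the coactivator Ncoa7 (0.984). For circKansl1 they were those of the forkhead factor Foxk2 (0.997), the BAF subunit Arid1b (circRNA 011781, 0.996) and the ubiquitin ligase scaffold Cul3 (0.991), of which only that of Cul3 stood in the higher list. Over the 5 arrays without WT 3, these r ranged from 0.932 to 0.997. Of the other 13352 tested circRNAs with a value on all 6 arrays, an r above 0.95 was seen with 202 for circEzh2 (1.51%), 363 for circRNA_30123 (2.72%), 449 for circRNA_30129 (3.36%) and 431 for circKansl1 (3.23%).

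CircRNA_30129 was 1 of 24 HuD-bound circRNAs from 19 host genes on a list of 144 chromatin regulators, all 24 of them tested. Only 1 of the 24 (4.17%) passed the limits for higher, beside 2.51% of all tested circRNAs, and none passed those for lower, beside 0.483%. By limma 1 of the 24 had an unadjusted p under 0.05, and adjusted p-values ran from 0.866 to 0.983. The median log2 fold change was 0.30, ranging from -0.32 to 0.98, with 21 of 24 above 0, where the median of all tested circRNAs was 0.15 with 61.9% above 0. Without WT 3 the median was 0.13, with 13 of 24 above 0, and against WT 1 alone it was -0.044. All HuD-OE arrays lay above all WT arrays for 3 of the 24 (12.5%), beside 7.36% of all. On WT 3, 5 of the 24 were not well above background.

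The circRNA past the limits was 41015 of Aebp2, an accessory subunit of Polycomb repressive complex 2, the complex of Ezh2. It read -0.55, -0.82 and -0.61 on HuD-OE 1, 2 and 3, beside -1.46, -1.37 and -2.11 on WT 1, 2 and 3. HuD-OE lay above WT without overlap, with a log2 fold change of 0.98 ± 0.36 (SE), a limma adjusted p of 0.866, and 0.75 without WT 3. It was no longer past the limits without HuD-OE 1, without HuD-OE 3, with normexp, with a replicate block or with a block on the array row. The largest changes among the rest were 0.81 ± 0.47 (SE) for 000936, also of Aebp2, 0.79 ± 0.40 (SE) for 011781 of Arid1b, a subunit of the BAF remodelling complex, and the 0.78 of circRNA_30129. Without WT 3 these read 0.36, 0.44 and 0.38. At the other end stood 006017 of Rere, a corepressor that recruits histone deacetylases (-0.32 ± 0.99, SE), 40760 of Setd5, a SET-domain protein (-0.26 ± 0.34), and 33158 of Ehmt1, a histone H3 lysine 9 methyltransferase (-0.19 ± 0.43). The SE exceeded the change for these lower circRNAs, which read -0.80, -0.29 and -0.11 without WT 3. By group, the median was 0.63 for the 6 Polycomb circRNAs, 0.78 for the 3 of bromodomain and remodelling genes, 0.15 for the 8 of histone methylation, 0.10 for the 5 of histone acetylation and 0.19 for the 2 of histones, DNA methylation and assembly, and without WT 3 it was 0.26, 0.38, -0.11, -0.15 and 0.09. The 6 Polycomb circRNAs came from 4 genes. The 0.78 is the value of circRNA_30129 itself, which stood there beside 2 circRNAs of Arid1b. GAAGAA stood in 3 of the 24 (12.5%, the same share as over all 726 sequences), those of Setd7, Brwd1 (circRNA_30129) and Nsd1, named after the search.

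The higher list held 6 circRNAs of genes on the list of 144 chromatin regulators, each of a different gene and all selected on this contrast. Beside circEzh2, circRNA_30123 and circKansl1 these were circRNAs of Jarid2, another accessory subunit of Polycomb repressive complex 2, with a log2 fold change of 2.13 ± 0.74 (SE), of Arid4b, a subunit of the Sin3 deacetylase complex, with 1.67 ± 0.39 (SE), and of Cecr2, a bromodomain protein of ISWI remodelling complexes, with 1.09 ± 0.37 (SE). The WT 3 spot of Arid4b was not well above background. Without WT 3 they read 1.18, 1.39 and 0.90. Of the 6, 5 held GAAGAA in the junction sequence, the exception being Jarid2, beside 30 of 69 in the whole higher list (43.5%). The 5 include circEzh2, circRNA_30123 and circKansl1, whose sequences had been seen before the search. A circRNA of Zmynd11, a gene not among the 144, also stood in the higher list. It was not counted and holds no GAAGAA.

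**Figure D4:**
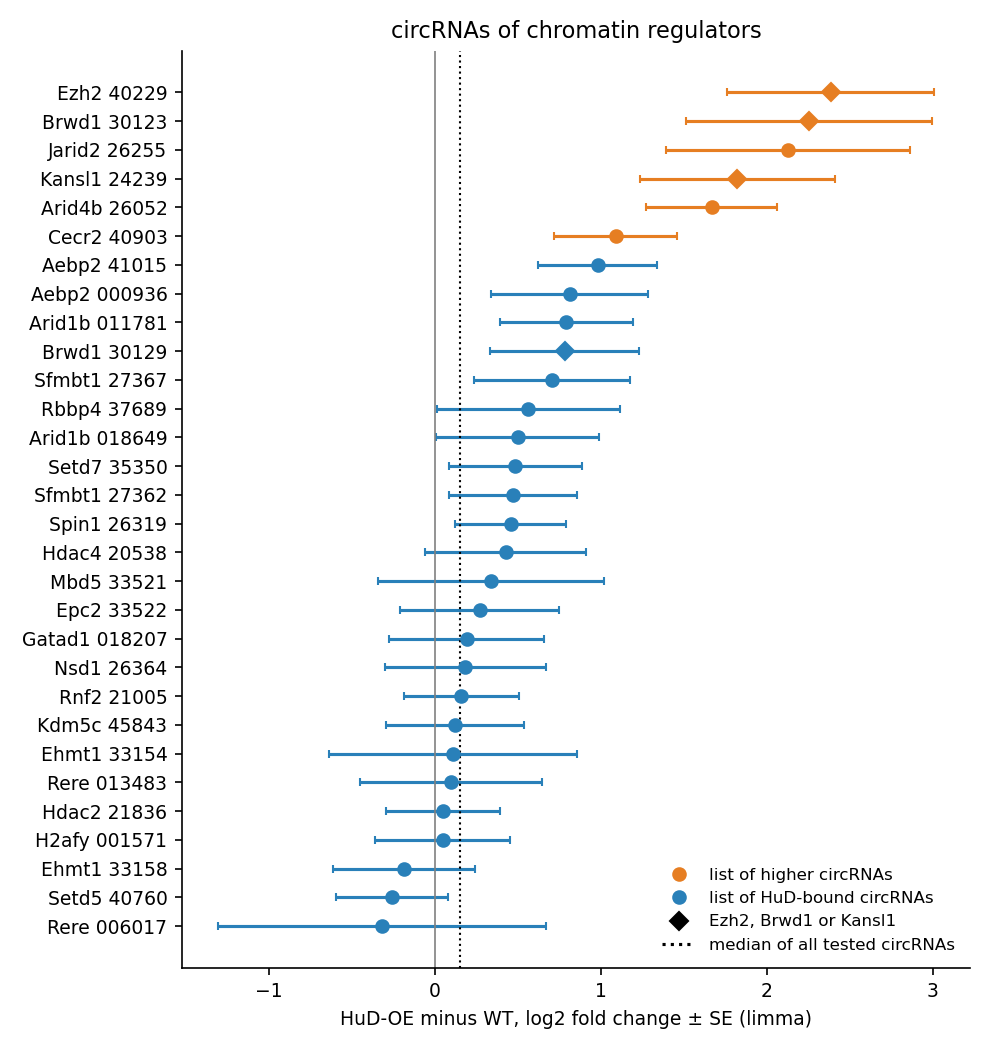
Log2 fold change of HuD-OE over WT with its limma SE for the circRNAs of chromatin regulators in the higher list (orange, selected on this contrast) and in the HuD-bound list (blue), with those of Ezh2, Brwd1 and Kansl1 as diamonds and the median of all tested circRNAs dotted. The 24 bound circRNAs range from -0.32 to 0.98, and the bars of many cross 0.

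Whether purine-rich junctions went with higher readings was then described on the bound circRNAs, since these were not selected on the arrays used here, although the immunoprecipitates they came from were also HuD-OE set against WT. Among 652 of them outside the higher list, the median log2 fold change was 0.07 at under 50% purines (n = 113), 0.24 at 50 to 60% (n = 316), 0.39 at 60 to 70% (n = 189) and 0.51 at 70% or more (n = 34). Across these circRNAs, which share the same arrays, Pearson's r between purine share and log2 fold change was 0.37. Arrays of both genotypes moved with this order. The median deviation from the mean of the 6 arrays went from -0.31 in the lowest band to -1.15 in the highest on WT 3, from 0.20 to 0.88 on HuD-OE 3, from 0.16 to 0.45 on HuD-OE 1 and from 0.19 to 0.47 on WT 1. On HuD-OE 2 it was -0.17 and -0.16, and on WT 2 it was 0.02 and -0.04. Without WT 3 the medians were -0.07, -0.08, 0.06 and 0.09 with an r of 0.18, and against WT 1 alone the r was -0.04. Bound circRNAs with GAAGAA had a median of 0.35 (n = 60) and those without of 0.26 (n = 592), and without WT 3 these medians were -0.0018 and -0.021. The changes of circEzh2, circRNA_30123 and circKansl1 without WT 3 (1.68, 1.33 and 1.13) lay above the median of every purine band, but they were selected on the contrast.

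**Figure D5:**
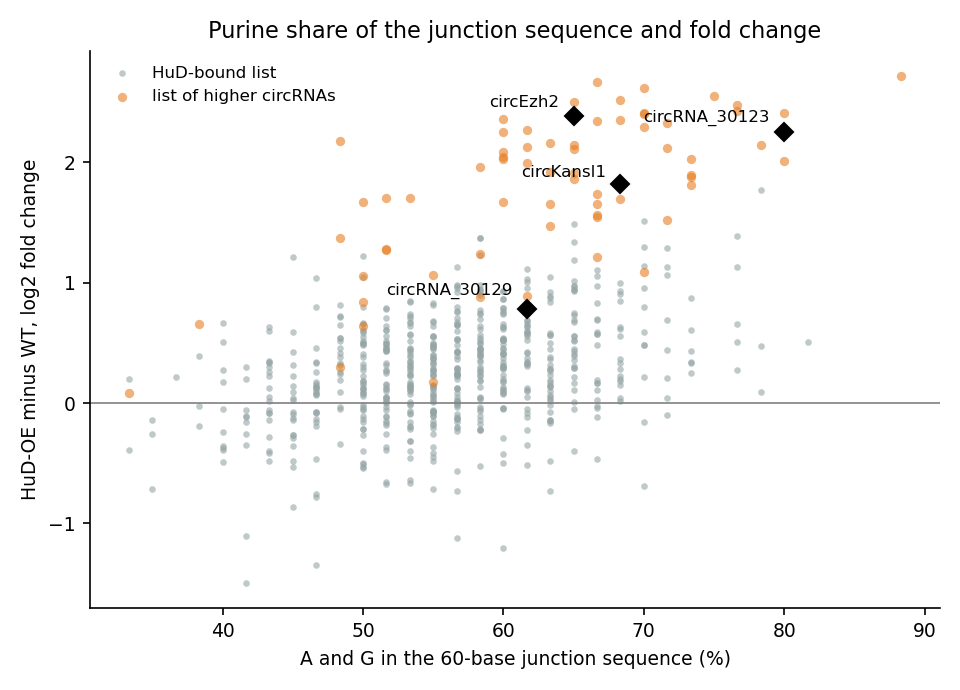
Log2 fold change of HuD-OE over WT against the percentage of A and G in the junction sequence, for circRNAs of the HuD-bound list (grey) and of the higher list (orange, selected on the fold change), with the 4 circRNAs as black diamonds. In the bound list the median rises from 0.07 at under 50% purines to 0.51 at 70% or more, an order that shrinks to -0.07 and 0.09 without WT 3.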

How the data were processed

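The authors deposited, for each of the 6 arrays, the intensity of every spot as read by Feature Extraction 11.0.1.1, background-corrected but not scaled between arrays. Their tables of higher and lower circRNAs, limited to changes of 2-fold with an unadjusted p of 0.05, also hold deposited mean log2 intensities per genotype, fold changes and p-values of their own comparison, which were not used except for the means quoted. The normalization behind them is not given in the sources used here, and 24 columns of single-sample values were not used.

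Here each array's 75th percentile over non-control spots was subtracted from the log2 processed intensity. Outlier spots were left out. CircRNAs well above background on at least 3 arrays were fitted with limma 3.58.1 in R 4.3.3, two-sided, with Benjamini-Hochberg adjustment. The fit was tested on simulated data with independent noise, of the same spread on every array for a given circRNA. That setting does not cover an array that stands apart, such as WT 3. Junction sequences and host genes came from the deposited tables and the study's list of bound circRNAs. Figures were drawn with matplotlib 3.10.9. The circRNAs, gene lists and tests were chosen with earlier results of these data known. Named were the 4 circRNAs, those of chromatin regulators past both limits, the 3 largest and 3 most negative of the rest, and the 3 most alike per circRNA. Replicate numbers were not used to pair the arrays in the main fit, and the labels do not say whether they pair mice. Each array holds 1 mouse per the labels. Other scalings, normexp on the median spot intensity, blocks, filters, the test of the study's methods and leaving out each array were tried as alternatives. Arrays give no depth, and 3 per genotype limit the precision.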

Additional observations from a re-analysis of the deposited data

How the results depend on the processing

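CircEzh2, circRNA_30123, circKansl1 and circRNA_30129 kept a positive change under each scaling, background correction, block and left-out array run. The first 3 were selected for a positive change on these arrays, so their sign adds no support. With the filter on all 6 arrays, circEzh2 and circRNA_30129 lay 2.42 and 0.82 above the median of the circRNAs that pass it. CircRNA_30123 and circKansl1 do not pass it. For circEzh2 the log2 fold change ranged from 1.68 to 3.03, for circRNA_30123 from 1.31 to 2.90, for circRNA_30129 from 0.11 to 1.12, and for the difference between the Brwd1 circRNAs from 0.84 to 2.05. CircKansl1 moved to 0.60 with normexp and an offset of 50, the cause of which was not tested. With 1 array left out at a time, circRNA_30129 ranged from 0.38 to 1.12 and crossed both limits in 1 case, without WT 1. The count of higher chromatin circRNAs among those bound (1) was 0 with normexp, 0 with a replicate block and 0 when blocking on the array row, and 0 to 2 with 1 array left out. Blocking on the array row, which leaves HuD-OE against WT 1, gave a median of -0.044 for this list, and the difference in median between bound circRNAs with and without GAAGAA, a result added after seeing the data, was -0.026 instead of 0.09. Array scaling shifted the median of all circRNAs by -0.15 (quantile), -0.18 (median centring), 0.11 (percentile over detected circRNAs) and -0.16 (normexp). Relative to that median the change of circEzh2 was 2.23 to 3.03 and that of circKansl1 0.61 to 1.67 over these settings. Deviations of arrays with the same replicate number correlated at -0.16, -0.20 and -0.56. These values cannot show whether the numbers pair mice, since array-wide differences such as the low WT 3 enter them. By the methods' t-test, 396 circRNAs had an unadjusted p under 0.05 and none passed after Benjamini-Hochberg adjustment. The scan as a block is the comparison without WT 3.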
